A study of Homo sapiens with 4 samples.

Results

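The integrin and cadherin genes comprise the alpha and beta subunits of the integrins and the numbered cadherins, and were picked out by a rule on their symbols. A gene was included if its symbol was ITGA or ITGB with a number or letter, or CDH with digits only, and the integrin-binding proteins ITGB1BP and ITGB3BP and the integrin-like ITGBL1 were left out. The rule found 46 genes, 25 integrin subunits and 21 cadherins, among 18417 genes with a probe set of exactly 1 symbol. ITGA1, CDH4 and CDH13 were not analysed here. Expression was measured in DAOY, an established human medulloblastoma cell line, on 4 whole-transcript arrays. Each of 3 arrays came from cells transduced with lentivirus encoding 1 hairpin against ZFX (H2, H3 or H4, genotype ZFX KD), and the remaining array came from cells with a scrambled hairpin without a target (SCR, genotype Ctrl). All 4 cultures were exposed to virus for 16 to 24 hours, recovered for 48 hours and were collected about 48 hours after puromycin was added at 2 ug/mL, so the scrambled cells carry a vector and were drug-selected too. Each condition is 1 array of bulk RNA, and fewer cells of a type and less RNA per cell cannot be told apart.

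Integrins are receptors of 1 alpha and 1 beta subunit that bind matrix proteins or other cells on the outside and talin, kindlin and actin linkers on the inside. The alpha subunit largely sets the ligand: some alpha subunits recognise the arginine-glycine-aspartate (RGD) motif of fibronectin and vitronectin, others collagen or laminin, and a further group is known from leukocytes. A subunit reaches the surface only with a partner, and the alpha v subunit pairs with several beta subunits. Cadherins join cells of the same kind through calcium-dependent contacts and are anchored to actin by catenins, with E-cadherin (CDH1) typical of epithelium and N-cadherin (CDH2) of neural and mesenchymal cells.

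ZFX, the zinc finger transcription factor that the hairpins target, had intensities of 744.9, 749.6 and 995.6 under H2, H3 and H4 and 1430 in scrambled cells, so all knockdown arrays were lower than the scrambled one, H4 least. Of the 3 hairpin arrays, H2 stood furthest from the scrambled array (Pearson r = 0.992 across all probe sets, against 0.996 for H3 and 0.995 for H4). Markers of cerebellar progenitors and medulloblastoma lay above the intensity filter (log2 6.78, the 25th percentile of all genes) for 12 of 15 measured genes, with GLI1, ZIC4 and NES below it. The filter was also passed by 9 of 9 mesenchymal markers, 5 of 8 epithelial, 7 of 11 haematopoietic, 2 of 8 endothelial, 3 of 7 neuronal and 3 of 7 glial ones. EPCAM, PTPRC, CD3E and PECAM1, which define epithelium, leukocytes, T cells and endothelium, were below it on the mean of the 4 arrays. PECAM1 alone of these exceeded it in scrambled cells, at log2 6.98, and read 6.38, 6.42 and 6.53 with H2, H3 and H4.

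Each integrin or cadherin gene that differed at least 1.5-fold from scrambled cells did so with 1 hairpin and not with the others. In all, 25 members (19 integrins and 6 cadherins) passed the filter and 21 did not. On the H2 array ITGB3, ITGA11 and ITGA5 read 24.6%, 36.6% and 47.4% of the scrambled level, whereas ITGB3 and ITGA11 with H3 and H4, and ITGA5 with H3, lay between 85.4% and 105.1%. ITGB8, the beta 8 subunit, was the 1 member with a mean log2 difference beyond 0.3 that did not rest on H2, at 82.6%, 62.2% and 80.9% with H2, H3 and H4. Over the 3 hairpins together no member passed limma's moderated test (0 of 25, and 0 of 13813 genes, 0%, at an adjusted p of 0.05); the smallest adjusted p of a member was 0.9998. At an unadjusted p under 0.05 the same limma test gave 0 of the 25 members and 446 of 13813 genes (3.23%). The smallest unadjusted p of a member was that of ITGB8, at 0.082 in limma. Permuting which of the 4 arrays is the control allows no exact p below 0.25 (two-sided), and the 3 differences of a gene share that array.

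Counted by direction, 7 of the 25 members lay below the scrambled array with all 3 hairpins, against 30.6% of all genes, and 1 lay above it with all 3, against 16.9%. The share of lower members is near that of all genes. With each array centred on its median the members split 5 lower and 2 higher, and all genes 23.3% and 23.6%. None was 1.5-fold lower with every hairpin (0.311% of all genes were) and none was 1.5-fold higher (0.0507%). With H2, 3 members were at least 1.5-fold lower (5.61% of all genes) and 0 higher (0.992%). With H3 the counts were 1 lower (1.14%) and 1 higher (0.528%), and with H4 they were 0 lower (2.17%) and 0 higher (0.608%). The members' median log2 differences for H2, H3 and H4 were -0.12, 0.017 and -0.080, where all genes had -0.030, -0.021 and -0.046. The SD of the log2 differences among the members was 0.54, 0.25 and 0.12 for H2, H3 and H4, against 0.31, 0.20 and 0.22 over all genes.

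**Figure D1:**
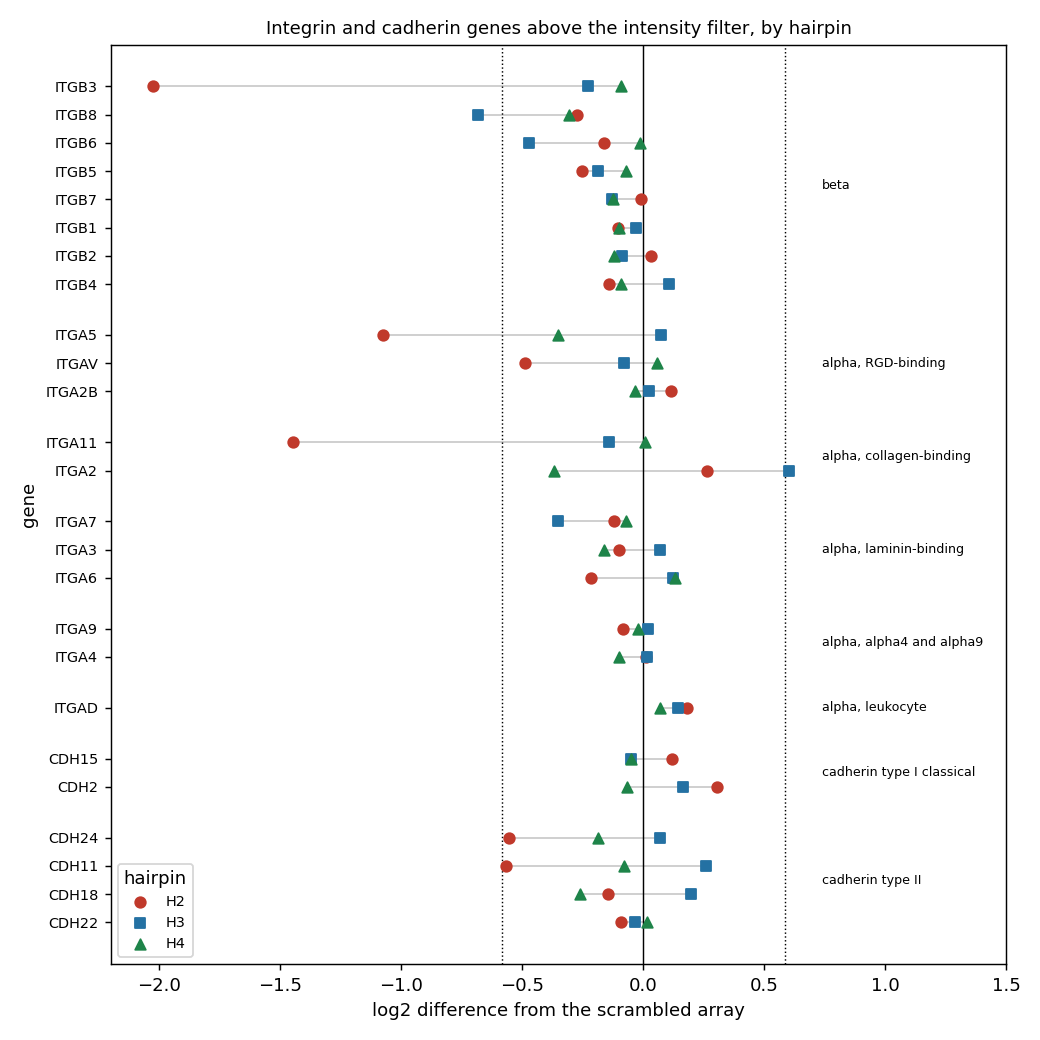
Log2 difference from the scrambled array (horizontal axis) of the 25 integrin and cadherin genes above the intensity filter, grouped by role (vertical axis), with 1 point for each hairpin array, a grey line over their range, and dotted lines at 1.5-fold. H2 alone lies beyond the lower line for ITGB3, ITGA11 and ITGA5, and H3 alone for ITGB8 (lower) and ITGA2 (higher).

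Among the beta subunits, ITGB3 had the largest mean difference of any member. This subunit pairs with alpha v in the vitronectin receptor and with alpha IIb on platelets. It had intensities of 486.3, 1691 and 1858 under H2, H3 and H4 and 1981 in scrambled cells. H2 was far below the rest, while H3, H4 and scrambled spanned only 0.23 on the log2 scale. The log2 differences were -2.03, -0.23 and -0.093 in that order, a mean of -0.78 ± 1.08 (SD, n = 3 hairpins; SE 0.78 in limma). In the comparison of H2 with scrambled, ITGB3 ranked 8 from the lowest of 13813 genes, against rank 1654 with H3 and 5342 with H4. Without H2 its mean difference was -0.16.

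ITGB8 pairs with alpha v and is known for activating latent TGF-beta. It had intensities of 2722, 2050 and 2663 under H2, H3 and H4 and 3294 in scrambled cells. All knockdown arrays lay below the scrambled one, with H3 the lowest and H2 and H4 close to each other. The log2 differences were -0.28, -0.68 and -0.31, with a mean of -0.42 ± 0.23 (SD, n = 3; SE 0.20 in limma). On average it stood at 74.6% of scrambled. It ranked 86 from the lowest with H3, 1418 with H4 and 2602 with H2. Under the other scalings of the arrays the mean stayed between -0.42 and -0.39, and without H3 it was -0.29.

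The beta 5 subunit ITGB5, another vitronectin-binding partner of alpha v, had intensities of 2522, 2644 and 2864 under H2, H3 and H4 and 3008 in scrambled cells. All 3 values were lower, with a mean log2 difference of -0.17 ± 0.093 (SD, n = 3). ITGB1, the common partner of most matrix-binding alpha subunits, had intensities of 4530, 4762 and 4541 under H2, H3 and H4 and 4864 in scrambled cells. That is a mean of -0.077 ± 0.041 (SD, n = 3), and 93.1% to 97.9% of the scrambled level. The epithelial beta 6 subunit ITGB6, another alpha v partner, had intensities of 302.7, 243.7 and 334.9 under H2, H3 and H4 and 338.4 in scrambled cells, with H3 the lowest here as for ITGB8. ITGB2, ITGB4 and ITGB7, the beta subunits of leukocyte, hemidesmosome and lymphocyte-homing integrins, were dim (mean log2 intensity 6.99, 7.07 and 7.02) and lay within 0.15 of the scrambled array on the log2 scale with each hairpin.

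Of the 8 beta subunits, 6 were below the scrambled array with all 3 hairpins (ITGB1, ITGB3, ITGB5, ITGB6, ITGB7 and ITGB8) and 0 above (30.6% and 16.9% of all genes), with a median of -0.13. ITGB2 and ITGB4 lay on both sides. The number lower was 4 with each array centred on its median (23.3% of all genes), 5 with quantile normalization (25%) and 5 with cyclic loess (26.5%). ITGB6 dropped out under each of these scalings, since its H4 value turned to between 0.025 and 0.038, and ITGB7 dropped out with centring.

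Among the RGD-binding alpha subunits, ITGA5, which forms the main fibronectin receptor with beta 1, had intensities of 1572, 3483 and 2594 under H2, H3 and H4 and 3313 in scrambled cells. H2 was the lowest and H4 second, and H3 was slightly above the scrambled array. The log2 differences were -1.08, 0.072 and -0.35, a mean of -0.45 ± 0.58 (SD, n = 3), or -0.14 without H2. ITGAV, the alpha v subunit, had intensities of 4038, 5360 and 5887 under H2, H3 and H4 and 5665 in scrambled cells. H2 was again the lowest, at 71.3% of the scrambled level, while H3 lay just below it and H4 just above it. The log2 differences averaged -0.17 ± 0.28 (SD, n = 3), or -0.012 without H2. ITGA2B, the platelet alpha IIb subunit and the other partner of beta 3, was dim (mean log2 intensity 6.97), with differences of 0.11, 0.023 and -0.033. ITGA8, a further RGD receptor, lay below the filter.

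The collagen-binding alpha subunits differed from each other. ITGA11, a receptor for fibrillar collagen known from fibroblasts, had intensities of 351.4, 870.6 and 962.8 under H2, H3 and H4 and 959.2 in scrambled cells. H2 was low and the other arrays spanned 0.15 on the log2 scale. The log2 differences were -1.45, -0.14 and 0.0055, a mean of -0.53 ± 0.80 (SD, n = 3), and -0.067 without H2. It ranked 49 from the lowest of 13813 genes with H2, and ITGA5 ranked 138. ITGA2, the collagen receptor also found on platelets and epithelium, had intensities of 4919, 6236 and 3182 under H2, H3 and H4 and 4102 in scrambled cells. H2 and H3 were above the scrambled array and H4 below it. The log2 differences were 0.26, 0.60 and -0.37, a mean of 0.17 ± 0.49, which turned to -0.052 without H3. ITGA2 was the 1 member more than 1.5-fold higher with any hairpin, at rank 64 from the highest with H3. ITGA10, the cartilage collagen receptor, was below the filter.

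No laminin-binding alpha subunit reached 1.5-fold with any hairpin. ITGA6 had intensities of 1601, 2023 and 2036 under H2, H3 and H4 and 1857 in scrambled cells, lower with H2 and slightly higher with the other hairpins. Its mean difference of 0.014 turned to -0.041 without H3 and -0.045 without H4. ITGA3 had intensities of 1063, 1196 and 1020 under H2, H3 and H4 and 1140 in scrambled cells, a mean of -0.064 ± 0.12 (SD, n = 3). ITGA7, the muscle laminin receptor, was dim (mean log2 intensity 7.05), with differences of -0.12, -0.35 and -0.071. ITGA4 and ITGA9, which bind VCAM1, fibronectin and tenascin, read 93.2% to 101.5% of the scrambled level. The signs of their mean differences (-0.025 and -0.027) changed under other scalings.

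Alpha subunits of leukocyte integrins gave little signal. ITGAL, ITGAM, ITGAX and ITGAE lay below the filter, with intensities from 80.4 to 118.3 over all arrays. ITGAD passed it narrowly (mean log2 intensity 7.02) and was the 1 member higher with all 3 hairpins, by 0.18, 0.14 and 0.070, with a mean of 0.13 ± 0.057 (SD, n = 3) and a p of 0.23 in limma before adjustment.

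**Figure D2:**
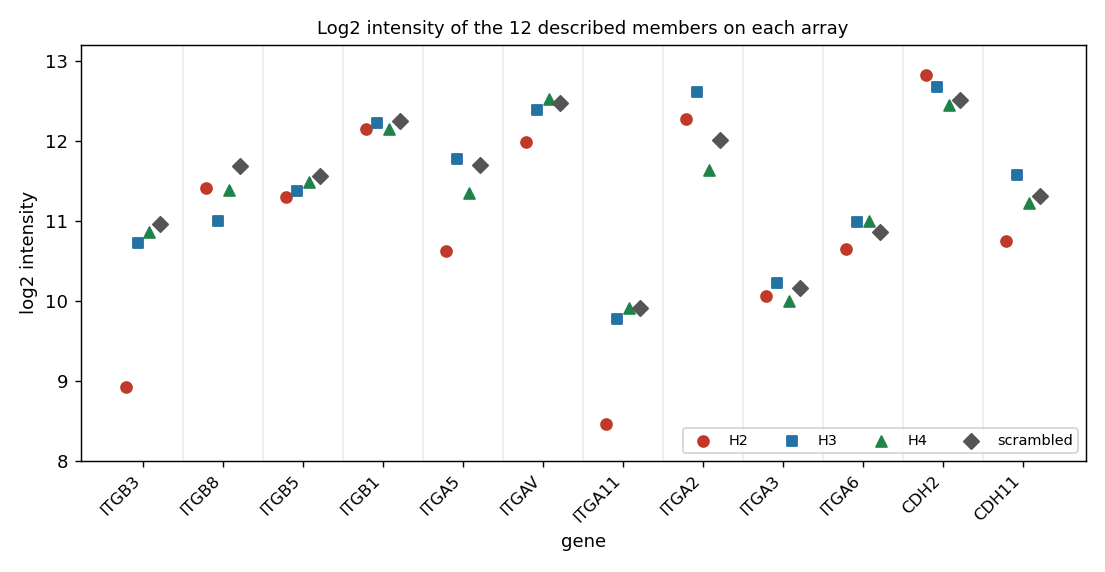
Log2 intensity (vertical axis) of the 12 members described in full (horizontal axis), with 1 point for each array. For ITGB3, ITGA5 and ITGA11 the H2 point lies apart below the other 3 arrays, and for ITGB8 the scrambled point is the highest. Heights can be compared between arrays within a gene, not between genes.

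Among the cadherins, 15 of the 21 were below the filter. CDH2 had intensities of 7213, 6543 and 5579 under H2, H3 and H4 and 5841 in scrambled cells. H2 and H3 were above the scrambled array and H4 slightly below, a mean log2 difference of 0.13 ± 0.19 (SD, n = 3). CDH11, a type II cadherin known from mesenchyme and bone, had intensities of 1710, 3034 and 2394 under H2, H3 and H4 and 2531 in scrambled cells. H2 was the lowest and H3 the highest, with log2 differences of -0.57, 0.26 and -0.080. The mean of -0.13 ± 0.42 turned to 0.091 without H2. On the H2 array N-cadherin was thus higher and cadherin 11 lower than in scrambled cells, while on the H3 array both were higher.

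The other type II cadherins above the filter were CDH18, CDH22 and CDH24. CDH24 had intensities of 166.9, 257.5 and 215.6 under H2, H3 and H4 and 245.1 in scrambled cells, with H2 the lowest at -0.55. CDH18 had 280.1, 354.8 and 258.0 against 309.5, on both sides of the scrambled array, and CDH22 read 93.9% to 101.1% of it. CDH24 and CDH11 with H2 lay just short of 1.5-fold (0.585 on the log2 scale), and ITGA2 with H3 just beyond it. Of the 6 cadherins above the filter, 0 were lower and 0 higher with all 3 hairpins. The median was -0.053, against -0.035 for all genes.

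E-cadherin (CDH1) was dim on every array, at 67.4, 66.6 and 66.1 under H2, H3 and H4 and 68.0 in scrambled cells. P-cadherin (CDH3) and the endothelial VE-cadherin (CDH5) were below the filter too, between 71.9 and 77.2 and between 84.0 and 92.7. The 21 members below the filter had mean log2 intensities from 5.50 (CDH9) to 6.77 (ITGAX), and their log2 differences lay between -0.27 and 0.35. The largest of these belonged to CDH6, a type II cadherin known from the kidney, at 67.4, 61.4 and 58.4 under H2, H3 and H4 and 52.8 in scrambled cells. When all 46 members were fitted, CDH6 had an unadjusted p of 0.045 and an adjusted p of 1 in limma.

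**Figure D3:**
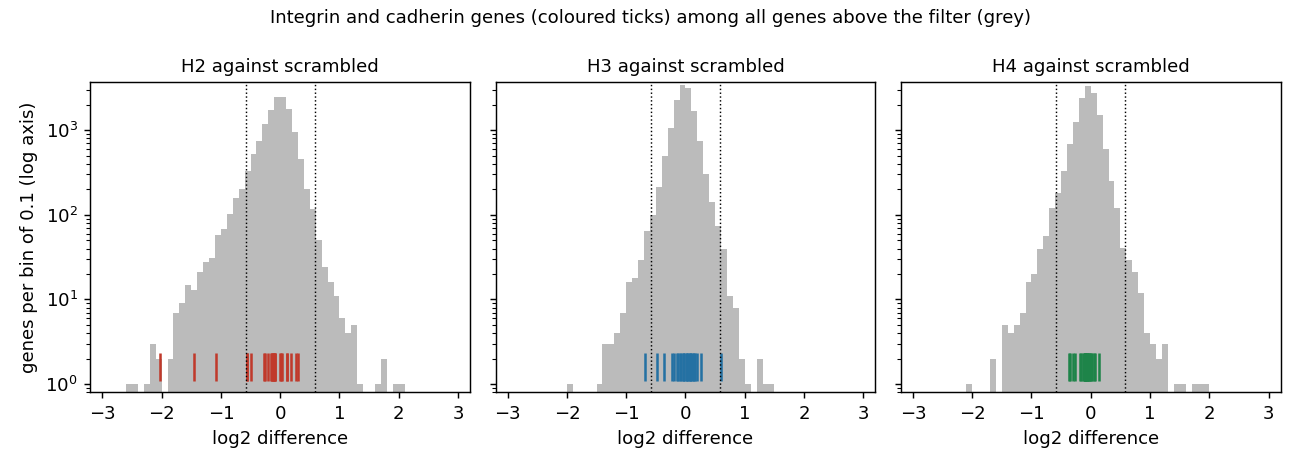
Distribution of log2 differences from the scrambled array (horizontal axis) over 13813 genes, 1 panel for each hairpin, with the number of genes per bin of 0.1 on a log axis. Coloured ticks mark the 25 members and dotted lines mark 1.5-fold: 3 members lie beyond the lower line with H2, 1 with H3 and 0 with H4.

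Markers of other cell types differed on the H2 array too, and some were lower with every hairpin. Of 9 mesenchymal markers, 4 were at least 1.5-fold lower on the H2 array, 0 on the H3 array and 2 on the H4 array. The shares of all genes were 5.61%, 1.14% and 2.17%. The markers' medians were -0.46, 0.030 and 0.056. Their summed intensity was 37463 with H2, against 42125 to 42874 on the other arrays. The summed intensity of the 11 haematopoietic markers ran to 3833, 6023 and 4808 under the hairpins in that order and 5912 in scrambled cells. CD68 contributed the most to it, at log2 10.9, 11.7, 11.2 and 11.3 in the same order, highest with H3. The summed intensity of the 8 endothelial markers ran to 1100, 1563, 1586 and 2186. In scrambled cells it is largely that of TIE1 and TEK (log2 9.83 and 9.60). Above the filter, 2 of 2 endothelial and 2 of 7 haematopoietic markers were lower with every hairpin and 0 higher (30.6% and 16.9% of all genes). TIE1 read 31.4%, 53.0% and 53.2% of the scrambled level with H2, H3 and H4, and LCP1 35.5%, 66.2% and 38.1%. Both were at least 1.5-fold lower with every hairpin, as 0.311% of all genes were. On the H2 array 7 of the 9 mesenchymal markers were lower, from -1.35 (TAGLN) to -0.085 (FN1), and 2 higher, VIM (0.097) and COL3A1 (0.40). With H4, TAGLN and THY1 were at least 1.5-fold lower and COL3A1 (0.87) at least 1.5-fold higher. PTPRC, PECAM1 and CDH5 were below the filter, PECAM1 with log2 differences of -0.59, -0.56 and -0.45. Without the filter, 5 of the 8 endothelial markers were lower with every hairpin and 1 higher (31.3% and 17% of all genes). The lists also hold ITGAM, CDH1 and CDH5, which are members. The part of these differences in the low ITGB3, ITGA11 and ITGA5 readings was not tested.

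Among genes that work with the integrins inside the cell, 36 lay above the filter. Of these 19 were lower and 2 higher under every hairpin (30.6% and 16.9% of all genes), with a median of -0.11, against -0.035 for all genes. The number lower was 13 to 15 under the other scalings (23.3% to 26.5% of all genes). Without H2 the median was -0.069, against -0.033 for all genes. With H2, 7 were at least 1.5-fold lower (5.61% of all genes), against 1 with H3 (1.14%) and 1 with H4 (2.17%). FERMT1 (kindlin-1, an integrin activator) was at 56.3% of the scrambled level, with log2 differences of -0.78, -0.51 and -1.20. PARVG, the leukocyte parvin, was at 57.8%, with -1.56, -0.65 and -0.16. Higher with every hairpin were CSK, a kinase that restrains SRC, by 0.060 on average, and LIMS2, an adaptor of integrin-linked kinase, by 0.068. The adhesion kinase PTK2 and the kindlin FERMT2 were at 94.9% and 94.0%. In limma 0 of the 36 passed, and 1 (FERMT1) had an unadjusted p under 0.05.

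Ligands of integrins other than collagens numbered 26 above the filter. Of these 9 were lower and 2 higher under every hairpin (30.6% and 16.9% of all genes), so the count lower by direction alone was near that of all genes. At least 1.5-fold lower were 5 with H2 (5.61% of all genes), 2 with H3 (1.14%) and 3 with H4 (2.17%). At least 1.5-fold higher were 0 with each hairpin (0.992%, 0.528% and 0.608%). Under the other scalings 6 to 8 were lower (23.3% to 26.5% of all genes). Their median was -0.13, against -0.035 for all genes. SPP1 (osteopontin, a ligand of alpha v beta 3) was at 56.9%, with log2 differences of -0.74, -0.38 and -1.32, and LAMB3, a chain of the laminin that epithelial integrins bind, was at 63.9%, with -0.68, -0.82 and -0.43. ICAM2 and ICAM3, ligands of leukocyte integrins, were at 115.7% and 126.4%. FN1, fibronectin, the ligand of the ITGA5 receptor, was at 98.5%, with differences of -0.085, -0.027 and 0.045. In limma 0 of the 26 passed, and 1 (LAMB3) had an unadjusted p under 0.05.

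On the cadherin side, 14 catenins and catenin partners lay above the filter. With every hairpin 7 were lower and 0 higher (30.6% and 16.9% of all genes), and their median difference was -0.12, against -0.035 for all genes. JUP, plakoglobin, which links cadherins to the cytoskeleton in desmosomes and adherens junctions, had the largest mean difference of these. Its log2 differences were -0.78, -0.65 and -0.90 with H2, H3 and H4, averaging -0.78 ± 0.12 (SD, n = 3), or 58.4% of scrambled. It was the 1 gene of the list at least 1.5-fold lower with every hairpin, as 0.311% of all genes were. NECTIN2, a junctional adhesion molecule, was at 70.5%, with -0.62, -0.23 and -0.66. CTNNB1, beta-catenin, was at 89.2%, and CTNNA1, alpha-catenin, at 93.4% with -0.34 on H4 alone. In limma 0 of the 14 passed, and 2 (JUP and PLEKHA7) had an unadjusted p under 0.05, as did 3.23% of all genes. The summed intensity of the 8 epithelial markers was 9591, 9895 and 9101 under the hairpins and 11737 in scrambled cells. It is largely that of KRT8 and KRT18 (log2 12.1 and 12.7 in scrambled cells). The 5 above the filter were all lower with every hairpin (30.6% of all genes), and EPCAM, CDH1 and GRHL2 lay below it. The part of the epithelial markers in the differences of the catenins and their partners was not tested.

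Of 18 cadherin relatives outside the numbered series, 6 were lower and 1 higher under every hairpin, near the 30.6% of all genes that were lower, and the median was -0.052. CLSTN2, a calsyntenin of synapses, was at 68.2% and CELSR1, a planar polarity cadherin, at 84.2%, while CELSR3 was at 110.1%. Factors that promote or oppose the epithelial-mesenchymal transition, several of which repress CDH1, had 5 of 15 lower and 2 higher under every hairpin (median -0.056). That is near the 30.6% and 16.9% of all genes. The 5 lower include OVOL1 and OVOL2, which oppose the transition. With each array centred on its median the counts were 2 lower and 3 higher (23.3% and 23.6% of all genes). ZEB2 was at 78.6% and TWIST1 at 89.8%, whereas PRRX1, a mesenchymal homeobox factor, was at 165.0%, with log2 differences of 1.25, 0.68 and 0.24, and SNAI3 was at 108.3%. In limma 0 of either list passed, and 0 had an unadjusted p under 0.05.

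**Figure D4:**
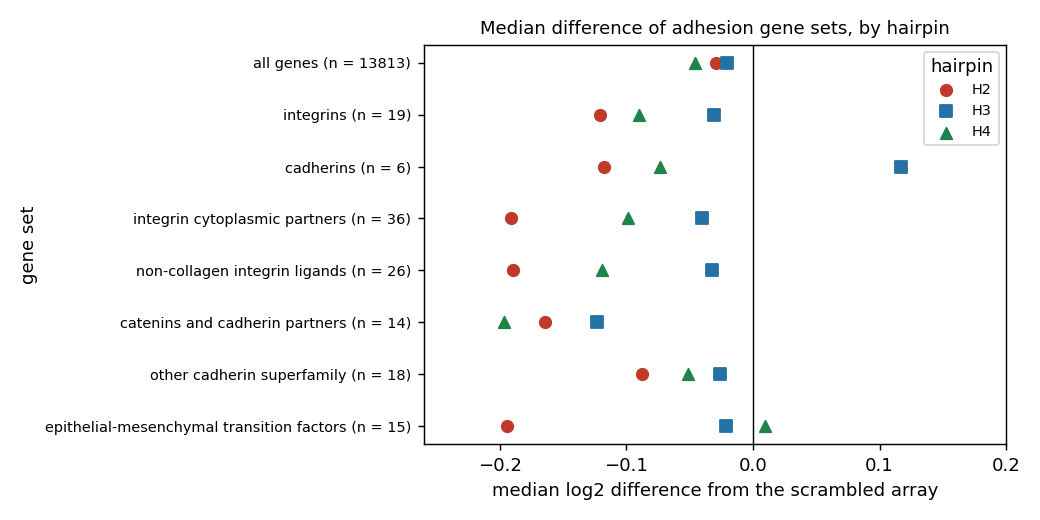
Median log2 difference from the scrambled array (horizontal axis) of adhesion gene sets and of all genes (vertical axis, with the number of genes above the filter), with 1 point for each hairpin. H2 gives the lowest median in 6 of the 7 adhesion sets, and the cadherins are the 1 set above 0 with H3, at 0.12.

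Promoter sequences were available in the RefSeq table (GRCh38.p14) for 27 of the 46 members, as 42 windows of 300 bases that run from 250 before to 50 after an annotated start. ITGB3, CDH11 and ITGA3 had no entry. The windows were searched for AGGCCT, the core of the recognised ZFX motif, which reads the same on both strands. It was present in 2 of the 42 windows (4.76%), against 10.9% of all 35116 windows. The members with a match were ITGA10, which lay below the filter, and ITGAV. The windows of ITGAV, the alpha v subunit, and of the members ITGA5, ITGA11, ITGA2 and ITGB8, which lay beyond 1.5-fold with H2 or H3, are shown 5′ to 3′ on the gene's strand, with AGGCCT in capitals where it occurs. They lie at chr2:186589806-186590105 (plus strand, 1 of 2 listed starts), chr12:54419217-54419516 (minus), chr15:68432114-68432413 (minus), chr5:52989102-52989401 (plus) and chr7:20330650-20330949 (plus).
ITGAV: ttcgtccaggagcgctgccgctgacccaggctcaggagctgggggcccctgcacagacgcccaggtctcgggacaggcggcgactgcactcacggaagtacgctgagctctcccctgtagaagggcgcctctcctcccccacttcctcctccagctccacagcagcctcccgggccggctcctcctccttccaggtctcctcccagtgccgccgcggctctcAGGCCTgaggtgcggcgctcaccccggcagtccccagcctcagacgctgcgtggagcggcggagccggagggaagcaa
ITGA5: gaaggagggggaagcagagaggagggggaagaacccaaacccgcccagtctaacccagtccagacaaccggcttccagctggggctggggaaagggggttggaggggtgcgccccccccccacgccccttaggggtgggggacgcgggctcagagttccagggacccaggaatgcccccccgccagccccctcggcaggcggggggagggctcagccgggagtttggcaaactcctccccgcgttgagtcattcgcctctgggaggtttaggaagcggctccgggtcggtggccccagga
ITGA11: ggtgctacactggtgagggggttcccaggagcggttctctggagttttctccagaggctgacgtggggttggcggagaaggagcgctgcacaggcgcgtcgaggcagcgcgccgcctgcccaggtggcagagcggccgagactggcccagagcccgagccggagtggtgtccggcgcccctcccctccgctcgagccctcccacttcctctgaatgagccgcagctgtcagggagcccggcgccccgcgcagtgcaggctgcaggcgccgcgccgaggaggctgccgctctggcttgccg
ITGA2: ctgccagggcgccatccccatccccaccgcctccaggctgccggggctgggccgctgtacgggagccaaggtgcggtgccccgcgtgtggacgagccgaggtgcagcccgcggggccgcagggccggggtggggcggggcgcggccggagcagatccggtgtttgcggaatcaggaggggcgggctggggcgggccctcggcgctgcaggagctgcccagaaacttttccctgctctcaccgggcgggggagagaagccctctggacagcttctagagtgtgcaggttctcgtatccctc
ITGB8: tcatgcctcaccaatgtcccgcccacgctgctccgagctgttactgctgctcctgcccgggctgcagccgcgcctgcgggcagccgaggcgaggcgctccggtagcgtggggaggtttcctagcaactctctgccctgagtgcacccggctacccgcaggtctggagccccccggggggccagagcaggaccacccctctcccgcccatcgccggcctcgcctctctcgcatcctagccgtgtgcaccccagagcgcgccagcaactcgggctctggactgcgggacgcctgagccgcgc

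In ITGAV the match begins 28 bases before the start, and its other listed start has none. The windows of ITGA5, ITGA11, ITGA2 and ITGB8 hold no AGGCCT, and no other motif was searched. All 5 are rich in G and C, at 70.7%, 69.3%, 72.0%, 72.7% and 71.7% in the order shown. The ratio of observed to expected CpG pairs was 0.63 for ITGAV, 0.75 for ITGA11, 0.69 for ITGA2 and 0.74 for ITGB8, above 0.6, and 0.45 for ITGA5. Over the 22 windows of members above the intensity filter, 12 had a ratio above 0.6 (54.5%), and 8 of the 20 windows of members below it did. Over all genes the corresponding shares were 72.8% above the filter and 28.8% below it, given here as a description.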

How the data were processed

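Gene expression was measured on 1 whole-transcript array for each of the 4 cultures, from 250 ng of total RNA labelled with biotin. Per the submitters' processing notes the authors used RMA, and the deposited table holds 1 intensity for each of 33297 probe sets on a linear scale. RMA equalises probe intensities between arrays, so a shift shared by most genes would be reduced. Its version and settings and the genome build of the probes: not given in the sources used here. No detection call, scan date or slide was used, so batches could not be examined, and the number of arrays limits the precision.

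Log2 of each intensity was taken, which had been assumed to be deposited. Probe sets with exactly 1 symbol (19460) were kept (1754 had several and 12083 none). 19429 matched RefSeq by gene number. The highest-mean probe set stood for a gene, and genes below the 25th percentile of mean log2 intensity (6.78) were left out, which left 13813. The 3 knockdown arrays, which have 1 genotype label, were set against the scrambled array with limma 3.58.1 (R 4.3.3; lmFit, eBayes with an intensity trend, 2 residual degrees of freedom) and Benjamini-Hochberg adjustment over all genes at 0.05. Only the hairpins give a spread, and the scrambled array is assumed to vary like them. Nothing in the labels says the cultures were repeated, so p-values measure only the spread between these arrays. Single hairpins were compared by size, without a test. Tested on simulated data for this comparison (13813 genes), the fit called 79 of 300 genes changed 2-fold, 211 of 300 changed 4-fold and 6 unchanged ones. Figures used matplotlib 3.10.9 and tables pandas 2.3.3.

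The members and gene lists were chosen with earlier results of these data known. Values on every array are given for members above the filter that lay on 1 side of the scrambled array with all 3 hairpins by at least 0.3 on average (log2), or at least 1.5-fold from it with any hairpin, or had a mean log2 intensity of at least 9 (12 members). Other members are summarised, with values for those whose role sets a reference point. CDH6, CDH24, CDH18, ITGB6, ITGA7, FN1, CTNNB1, CTNNA1, PTK2 and FERMT2 were chosen after their values were seen or for their role. Of each list, up to 2 genes at each end that lay on 1 side with all 3 hairpins are named. Alternatives were other scalings (median centring, quantile, cyclic loess), other filters, the mean of a gene's probe sets, no intensity trend, and leaving out each hairpin.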

Additional observations from a re-analysis of the deposited data

How the results depend on the processing

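No integrin or cadherin gene and no other gene passed limma's test as deposited or under any of the 10 alternatives run. At an unadjusted limma p under 0.05, 248 to 691 of the genes tested were counted, and 0 members, apart from 1 without the intensity filter (CDH6) and 1 without H2 (ITGB8). In limma without H2, ITGB8 had an unadjusted p of 0.046 and an adjusted p of 0.9999. Fewer genes were tested with the filter at the 50th percentile (13 members) and more without one (46 members). The count of members lower with all hairpins used was 7 of 25 as deposited (30.6% of all genes). It was 4 of 13 with the filter at the 50th percentile (31.8%) and 16 of 46 without one (31.3%). With 1 hairpin left out, so that fewer had to agree, it was 9 to 14 of 25 (14 without H3). The share of all genes then rose too, to between 39.4% and 40.6%. Members higher with all numbered 1 as deposited (16.9% of all genes) and 2 with each array centred on its median (23.6%). They numbered 0 with the filter at the 50th percentile (15.7%) and 7 without a filter (17%). With 1 hairpin left out they numbered 1 to 5 (2 without H2, 5 without H4), against 23.5% to 27.9% of all genes. The median of the members stayed negative throughout, from -0.13 to -0.038, and no alternative gave a member 1.5-fold away with every hairpin. Other filters, the mean of probe sets and the fit without a trend cannot move a named member's difference. Under the 3 other scalings all 36 values of the 12 named members kept their direction, and with 1 hairpin left out 32 of 36 did. The means with 1 hairpin left out reuse differences of the main mean, so much of this agreement is built in. The same share over all genes was not computed. The 4 that turned were of 3 members: CDH11 ranged from -0.32 to 0.091 (0.091 without H2), ITGA2 from -0.052 (without H3) to 0.43, and ITGA6 from -0.045 (without H4; -0.041 without H3) to 0.13. Members at least 1.5-fold lower with H2 numbered 3 of 25 under every scaling. Over all 13813 genes the count was 775 as deposited and 645 to 721 under the other scalings. No paired analysis was possible because the scrambled group has 1 array and the labels give no replicate numbers.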
